A study of Mus musculus with 6 samples.

Results

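The genes described here make up the machinery through which a cell senses sterols and adjusts its own cholesterol supply. They were chosen by name, as the regulators of the sterol regulatory element-binding proteins (SREBPs) and their sterol sensors. Of the 9 named genes, 8 had a row among the 14774 genes of the deposited counts, namely Srebf1, Srebf2, Scap, Insig1, Insig2, Mbtps1, Mbtps2 and Stard4. The expression of the remaining gene, Mylip, was not analysed here. RNA sequencing was carried out on 3 libraries of untreated wild type MA-10 cells, which derive from a tumor of mouse Leydig cells (the steroid-making cells of the testis), and on 3 libraries of untreated STARKO1 cells (genotype STAR KO). STARKO1 is a single clone of MA-10 cells, raised from a sorted cell after CRISPR/Cas9 had been directed at Star, which encodes the cholesterol transport protein STAR. Both lines therefore share the MA-10 background, and what belongs to the loss of STAR cannot be told apart from what belongs to the clone. The RNA is that of whole cultures, so fewer cells with a transcript and less of it per cell cannot be told apart.

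SREBP precursors are made in the membrane of the endoplasmic reticulum, where they are bound by SCAP. When sterols are plentiful, SCAP binds an INSIG protein and the complex stays in place. When sterols run low, SCAP carries the precursor to the Golgi, where site-1 protease (encoded by Mbtps1) and then site-2 protease (encoded by Mbtps2) release the part that enters the nucleus and switches on genes for cholesterol and fatty acid synthesis. In Leydig cells, cholesterol made or taken up in this way is the starting material for steroids, and STAR governs its entry into mitochondria. Because the pathway is controlled by transport and cleavage of proteins, the levels of these transcripts do not measure its activity directly. Insig1 and Stard4 are, however, also targets of SREBPs, as described below.

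The libraries were first checked against their labels. The counts of Star were 1064, 1261 and 697 for MA-10 replicates 1 to 3 and lay between 36 and 48 in STARKO1 cells. All 10 Leydig cell markers examined, among them Nr5a1, Cyp11a1 and Insl3, were at 1 CPM or more in every library. Their summed level was 1622 to 2153 CPM in MA-10 and 1505 to 1552 CPM in STARKO1 cells, without overlap. This sum includes Star, the targeted gene. Among the markers, Cyp11a1 was at 610 to 1118 CPM in MA-10 and 432 to 450 CPM in STARKO1 cells, and Hsd3b1 was at 24.3 to 37.2 and 4.72 to 5.72 CPM. Star and Lhcgr were also lower in STARKO1 cells without overlap. In the other direction, Nr5a1 was at 392 to 571 CPM in MA-10 and 608 to 652 CPM in STARKO1 cells. Cyp17a1 was likewise higher, at 2.12 to 6.24 and 6.28 to 10.5 CPM. For Insl3, Gata4, Scarb1 and Fdx1 the groups overlapped. CPM is the count relative to the library size as scaled by the TMM method. Of the markers of other testis cells, Dhh and Rhox5 (Sertoli cell list) and Ddx4 (germ cell list) were also at 1 CPM or more in every library, and the other 4 Sertoli and 5 germ cell markers were not analysed here. The summed level of the Sertoli list was 333 to 524 CPM in MA-10 and 565 to 589 CPM in STARKO1 cells, and that of the germ cell list was 2.20 to 3.55 and 1.91 to 2.83 CPM. Of 4 peritubular myoid and 5 macrophage markers, 2 each were analysed, with sums of 13.0 to 20.5 against 1.72 to 2.59 CPM (mostly Des) and of 4.86 to 9.85 against 6.37 to 8.56 CPM. What part these markers have in the results was not tested. Total counts ranged from 14114349 to 19530054. MA-10 replicate 1 stood apart from the other MA-10 libraries. Over 8538 well-expressed genes (genes do not count as replicates), its log2 CPM had a Pearson's r of 0.802 with MA-10 replicate 2 and 0.874 with replicate 3, and between 0.949 and 0.955 with the STARKO1 libraries. Its Star level still matched its label. By TMM scaling factor, MA-10 replicates 2 and 3 were the ones apart, at 0.654 and 0.805. The factor was 1.16 for MA-10 replicate 1 and between 1.17 and 1.19 for the STARKO1 libraries. Which MA-10 libraries are typical of the line was not tested. Results that rest on MA-10 replicate 1 are therefore given with and without it, and fits without it rest on MA-10 replicates 2 and 3.

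With all 6 libraries, none of the 8 genes passed an adjusted p of 0.05 (quasi-likelihood test of edgeR, adjusted by Benjamini-Hochberg), against 9.04% of the 11939 genes tested (4.3% higher and 4.74% lower in STARKO1 cells). Before adjustment, Insig2 and Mbtps1 had a p under 0.05, that is 2 of 8, against 37.6% of all genes. DESeq2 called these 2 of the 8 genes, against 24.9% of all genes. The members' median log2 fold change was 0.27, beside -0.05 over all genes. Without MA-10 replicate 1, 5 of the 8 genes were differentially expressed, with Srebf1, Srebf2, Scap and Mbtps1 higher and Insig2 lower in STARKO1 cells. In that fit 65.7% of all genes were differentially expressed (34% higher and 31.7% lower), so a count of 5 of 8 (62.5%) was near the background. Mbtps1 was the 1 gene of the 8 whose 3 STARKO1 libraries did not overlap the 3 MA-10 libraries, and 42.5% of all genes had no overlap. The genes fell into those that divided the MA-10 libraries (Srebf1, Srebf2, Scap and Insig2), the 1 that separated the cell lines by a small step (Mbtps1), and the others. For these others, Insig1, Mbtps2 and Stard4, the groups overlapped and the log2 fold changes with all 6 libraries were the nearest to 0.

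**Figure D1:**
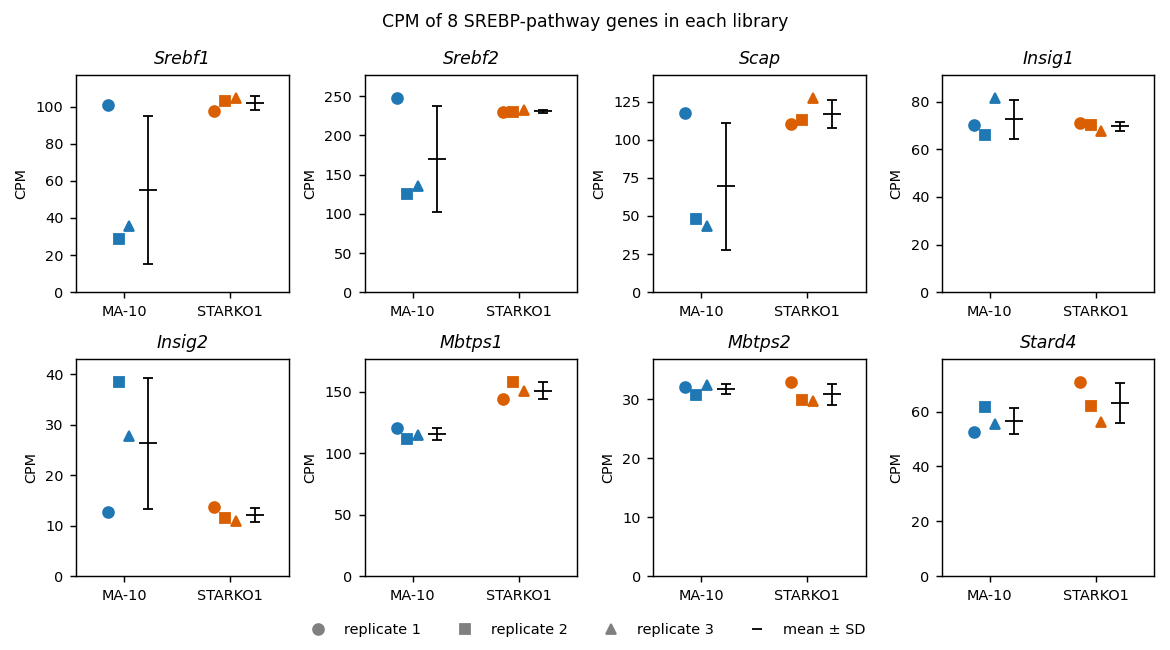
Level in CPM (vertical axes, starting at 0) of each of the 8 genes in the 3 MA-10 libraries (blue) and the 3 STARKO1 libraries (orange), with the replicate number given by the shape of the point and the mean ± SD drawn in black beside each group. For Srebf1, Srebf2, Scap and Insig2, MA-10 replicate 1 lies with the STARKO1 points and away from MA-10 replicates 2 and 3.

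The start regions of the 5 genes whose levels are set against each other below, the genes for both SREBP precursors, their escort and both INSIG proteins, are shown here as RefSeq gives them for GRCm38.p6. Each window runs from 250 bases before to 50 bases after a transcription start and reads 5′ to 3′ along the gene. Capitals mark TCACCCCA (the core of a sterol regulatory element), CACGTG (a palindromic E-box, which SREBPs can also bind), CCAAT (bound by NF-Y) and GGGCGG (bound by Sp1), each searched on both strands, so that ATTGG and CCGCCC are matches on the opposite strand. Srebf1, Scap and Insig2 have further RefSeq start windows, which are not shown. Each of these further windows held GGGCGG. Those of Srebf1 also included a CCAAT, and that of Scap a CACGTG.
Srebf1, chr11:60222532-60222831, minus strand: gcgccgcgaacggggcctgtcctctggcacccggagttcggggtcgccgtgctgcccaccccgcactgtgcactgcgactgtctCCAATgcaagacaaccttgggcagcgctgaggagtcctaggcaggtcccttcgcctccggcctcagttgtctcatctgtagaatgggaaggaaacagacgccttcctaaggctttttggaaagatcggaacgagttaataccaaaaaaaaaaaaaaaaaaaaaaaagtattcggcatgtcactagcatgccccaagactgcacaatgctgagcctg
Srebf2, chr15:82147019-82147318, plus strand: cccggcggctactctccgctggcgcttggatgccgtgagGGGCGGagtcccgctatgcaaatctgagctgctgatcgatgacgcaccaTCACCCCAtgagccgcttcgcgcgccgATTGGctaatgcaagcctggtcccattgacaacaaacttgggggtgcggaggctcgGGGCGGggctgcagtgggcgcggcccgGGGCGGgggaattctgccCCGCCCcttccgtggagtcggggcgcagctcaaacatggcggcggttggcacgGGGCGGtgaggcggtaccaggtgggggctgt
Scap, chr9:110333038-110333337, plus strand: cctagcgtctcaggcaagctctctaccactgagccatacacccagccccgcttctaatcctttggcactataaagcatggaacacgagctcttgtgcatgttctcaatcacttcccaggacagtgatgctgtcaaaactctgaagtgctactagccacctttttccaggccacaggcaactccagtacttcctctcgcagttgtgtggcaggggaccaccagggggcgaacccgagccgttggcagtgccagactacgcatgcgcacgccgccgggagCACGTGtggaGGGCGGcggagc
Insig1, chr5:28071162-28071461, plus strand: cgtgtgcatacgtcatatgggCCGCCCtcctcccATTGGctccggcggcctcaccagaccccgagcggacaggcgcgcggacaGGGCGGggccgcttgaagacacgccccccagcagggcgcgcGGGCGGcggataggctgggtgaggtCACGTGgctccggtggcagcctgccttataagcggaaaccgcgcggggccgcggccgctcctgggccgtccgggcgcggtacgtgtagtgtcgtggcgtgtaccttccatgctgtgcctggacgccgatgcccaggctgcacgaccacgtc
Insig2, chr1:121332540-121332839, minus strand: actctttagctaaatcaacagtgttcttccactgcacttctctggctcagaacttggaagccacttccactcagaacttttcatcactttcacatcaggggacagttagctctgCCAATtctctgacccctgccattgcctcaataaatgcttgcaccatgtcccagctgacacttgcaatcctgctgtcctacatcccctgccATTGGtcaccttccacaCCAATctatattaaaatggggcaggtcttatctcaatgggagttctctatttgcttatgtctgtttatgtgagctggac

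The longer form of the sterol regulatory element, TCACNCCAC, was in none of the 13 start windows examined, which belong to 8 of the 9 genes (Mylip included, Stard4 not analysed), and in 1.24% of all 32851 windows. The shorter core TCACCCCA, searched after the sequences had been seen, was in the Srebf2 window, beginning 162 bases before the start, and in 1.56% of all windows. With C at its open position, the longer form contains the whole of the shorter one. CACGTG was in 3 of the 13 windows, against 7.15% of all windows. It began 101 bases before the start of Insig1 and at position 29 of the Scap transcript. The second Scap window overlaps the first and held the same site, 40 bases before its own start. CCAAT was in 6 and GGGCGG in 10 of the 13 windows, against 37.4% and 35.7% of all windows. By gene, the last 3 motifs were in 2, 5 and 7 of the 8 genes. Overlapping windows of a gene, as for Scap, can count the same site more than once. These are matches of letters and not measured binding sites. The counts are summed per gene, so the 3 RefSeq start windows of Srebf1, from which separate isoforms are made, could not be distinguished.

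Srebf1 and Srebf2 encode the precursors themselves. SREBP-1 acts mainly on fatty acid synthesis and SREBP-2 mainly on cholesterol synthesis and uptake. Srebf1 (chromosome 11 of GRCm38, 60199089 to 60222581, minus strand) was at 100.7, 28.7 and 35.6 CPM in the MA-10 libraries, in the order of their replicate numbers as everywhere below, and at 97.5, 103 and 105 CPM in the STARKO1 libraries. MA-10 replicate 1 was within the STARKO1 range, while the other MA-10 libraries were far below it, and the groups overlapped. Means were 55.01 ± 39.8 and 102 ± 3.78 CPM (SD, n = 3 each), and the log2 fold change of 0.88 ± 0.463 (SE, here and below) had an adjusted p of 0.200 in edgeR, with a 95% interval of the fold change from 0.862 to 3.95. When MA-10 replicate 1 was left out, it came to 1.75 ± 0.142, with an adjusted p of 3.3e-05. The 3′ end of Srebf1 overlaps that of Rai1, which lies on the opposite strand, and the strand setting of the counting is not given in the sources used here.

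Srebf2 (chromosome 15, 82147181 to 82205379, plus strand) was at 248, 125 and 136 CPM in the MA-10 libraries and at 229.8, 229.4 and 232 CPM in the STARKO1 libraries. MA-10 replicate 1 was above all other libraries and replicates 2 and 3 were the lowest, so the groups overlapped. Means were 170 ± 67.9 and 231 ± 1.66 CPM (SD, n = 3 each). The difference on the log2 scale was 0.44 ± 0.286, with an adjusted p of 0.283 in edgeR and a 95% interval of the fold change from 0.849 to 2.17. It was 0.91 ± 0.114 without MA-10 replicate 1 (adjusted p = 0.000241). On the same strand inside Srebf2 lie the microRNA gene Mir33, not analysed here, and Gm49502, which has counts of its own, so reads may be shared.

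Scap encodes the sterol-sensing escort that holds both precursors. Scap (chromosome 9, 110333288 to 110384950, plus strand) was at 117, 47.8 and 43.3 CPM in the MA-10 libraries and at 110, 113 and 127 CPM in the STARKO1 libraries. The pattern over the libraries was that of the SREBP genes, with MA-10 replicate 1 inside the STARKO1 range. Means were 69.5 ± 41.5 and 117 ± 9.26 CPM (SD, n = 3 each). On the log2 scale the lines differed by 0.75 ± 0.390 (edgeR, adjusted p = 0.197, 95% interval of the fold change 0.885 to 3.19), and by 1.45 ± 0.123 once MA-10 replicate 1 was left out (adjusted p = 4e-05).

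In MA-10 replicate 1, Srebf1, Srebf2 and Scap were 3.13-fold, 1.90-fold and 2.57-fold above the mean of MA-10 replicates 2 and 3. On the log2 scale these differences were 1.65, 0.92 and 1.36, all above the upper quartile of 0.62 over all tested genes, whose median was 0.05. The transcripts of these 3 genes had a GC content between 57.9% and 59.1%, and those of the other 5 genes had at most 50.2%. Over the 2612 tested genes with a GC content of 55% or more, the median difference was 0.47 with quartiles of -0.22 and 1.01, and over the 6238 genes under 50% it was -0.16. These bounds of GC content were set after the data were seen. With offsets for GC content in each library, the log2 fold changes between the cell lines were 0.75 for Srebf1, 0.28 for Srebf2 and 0.59 for Scap, with adjusted p values of 0.167, 0.345 and 0.168. The noncoding 7SL RNA took 1.81% of the counts in MA-10 replicate 1, 14.4% and 6.63% in replicates 2 and 3, and from 1.82% to 2.37% in STARKO1 cells. What part the makeup of the libraries has in the levels of these genes was not tested beyond these offsets.

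Insig1 and Insig2 encode the proteins that hold SCAP in the endoplasmic reticulum. Insig1 is itself a target of nuclear SREBP, whereas Insig2 is not known as one. Insig1 (chromosome 5, 28071363 to 28078662, plus strand) was at 70.2, 65.8 and 81.5 CPM in the MA-10 libraries and at 71.0, 70.0 and 67.6 CPM in the STARKO1 libraries. All STARKO1 values lay within the MA-10 range. The difference on the log2 scale was -0.06 ± 0.151 (edgeR, adjusted p = 0.786), and the 95% interval of the fold change ran from 0.748 to 1.23. It was 0.0032 ± 0.132 when MA-10 replicate 1 was left out, and its sign turned with the scaling and with the library left out.

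Insig2 (chromosome 1, 121304353 to 121332589, minus strand) behaved differently between libraries. It was at 12.7, 38.5 and 27.8 CPM in the MA-10 libraries and at 13.7, 11.6 and 11.0 CPM in the STARKO1 libraries. MA-10 replicates 2 and 3 were above the other 4 libraries and MA-10 replicate 1 was among the STARKO1 values, the mirror image of Srebf1 and Scap. Means were 26.3 ± 13.0 and 12.1 ± 1.40 CPM (SD, n = 3 each). The log2 fold change of -1.12 ± 0.384, with an adjusted p of 0.0901 in edgeR and a 95% interval of the fold change from 0.245 to 0.866, was the largest of the 8 genes in either direction in this fit. It was -1.36 ± 0.161 when MA-10 replicate 1 was left out (adjusted p = 0.000181) and -1.08 with DESeq2 (adjusted p = 0.0413). Over all alternatives its adjusted p ranged from 0.000181 to 0.251. Gm37174 overlaps Insig2 on the opposite strand. Over the 6 libraries, the genes most like Insig2, among 11346 whose mean reached 1 CPM, were Armcx3, Fxr1 and Cox16. Their log2 CPM, centred on each gene, differed from that of Insig2 by a root mean square of 0.0634, 0.0684 and 0.0709, and the median over all genes was 0.743.

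Ratios within a library do not depend on how the libraries are scaled. The ratio of Insig1 to Insig2, in counts per kilobase of exon, was 6.20, 1.92 and 3.29 in the MA-10 libraries, against 5.83, 6.77 and 6.90 in the STARKO1 libraries. The mean log2 ratio was 1.76 ± 0.846 (SD, n = 3) in MA-10 cells and 2.70 ± 0.134 (SD, n = 3) in STARKO1 cells, a difference of 0.93 that was not significant (p = 0.20 by an exact two-sided permutation test, also 0.20 when adjusted over both ratios). The ratio of Srebf1 to Srebf2 was 0.518, 0.292 and 0.334 in the MA-10 libraries and 0.541, 0.573 and 0.575 in the STARKO1 libraries. Its mean log2 value was -1.44 ± 0.433 (SD, n = 3) in MA-10 cells and -0.83 ± 0.0489 (SD, n = 3) in STARKO1 cells. The 3 STARKO1 libraries were above the 3 MA-10 libraries, MA-10 replicate 1 being the nearest to them. The difference of 0.61 had the smallest p that 3 against 3 libraries allow (p = 0.10 by the same exact test, 0.20 when adjusted). Leaving out MA-10 replicate 1 gave differences of 1.37 for the INSIG ratio and 0.85 for the SREBP ratio (exact permutation test, p = 0.10 each, the smallest that 2 against 3 libraries allow).

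**Figure D2:**
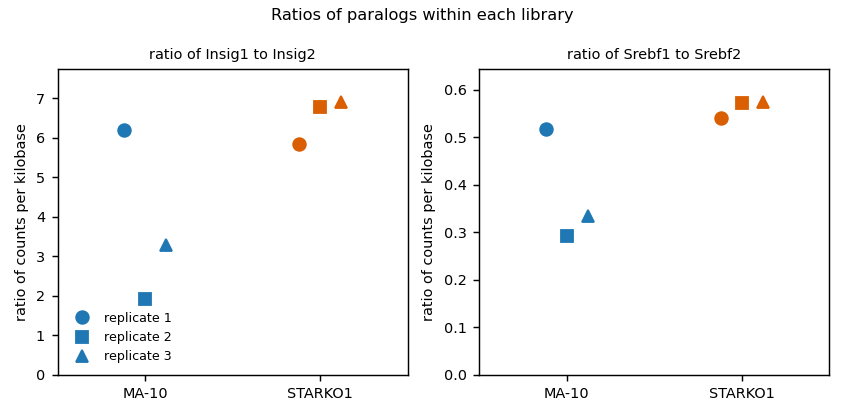
Ratio of Insig1 to Insig2 (left) and of Srebf1 to Srebf2 (right) in counts per kilobase of exon, from 0, in each MA-10 library (blue) and STARKO1 library (orange), with the replicate number given by the shape. MA-10 replicate 1 lies near the STARKO1 libraries in both ratios, and MA-10 replicates 2 and 3 lie between 1.92 and 3.29 on the left and between 0.292 and 0.334 on the right.

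Mbtps1 and Mbtps2 encode the proteases that cut the precursors in the Golgi. Mbtps1 (chromosome 8, 119508156 to 119558735, minus strand) was at 121, 112 and 115 CPM in the MA-10 libraries and at 144, 158 and 150 CPM in the STARKO1 libraries. Every STARKO1 library was above every MA-10 library, and here MA-10 replicate 1 was close to the other MA-10 libraries, at 1.06-fold of their mean. Means were 116 ± 4.53 and 151 ± 6.94 CPM (SD, n = 3 each). The log2 fold change of 0.38 ± 0.147 did not pass after adjustment (edgeR, adjusted p = 0.111), while its own 95% interval, not adjusted, ran from a fold change of 1.02 to 1.66. It was 0.50 ± 0.111 when MA-10 replicate 1 was left out (adjusted p = 0.00441) and 0.42 with DESeq2 (adjusted p = 0.0258), and the adjusted p ranged from 0.00441 to 0.330 over all alternatives. Mbtps2 (chromosome X, 157535371 to 157598715, minus strand) was at 32.1, 30.7 and 32.4 CPM in the MA-10 libraries and at 32.9, 29.8 and 29.6 CPM in the STARKO1 libraries. The groups overlapped, and they differed by -0.04 ± 0.140 on the log2 scale (edgeR, adjusted p = 0.834, 95% interval of the fold change 0.771 to 1.22), with a sign that turned under other scalings and when MA-10 replicate 1 was left out (0.054). Mbtps2 was the only one of the 8 genes with a value more than 0.05 away from a whole number, and the gene Yy2 lies inside it on the same strand, so its counts may share reads.

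Stard4 encodes a soluble carrier that moves sterol between membranes, a relative of STAR whose gene is a target of SREBP-2. It was at 52.5, 61.8 and 55.4 CPM in the MA-10 libraries and at 70.8, 62.2 and 56.3 CPM in the STARKO1 libraries. The groups overlapped, with STARKO1 replicate 1 the highest and MA-10 replicate 1 the lowest. On the log2 scale they differed by 0.16 ± 0.161 (edgeR, adjusted p = 0.482, 95% interval of the fold change 0.857 to 1.45), and by 0.20 when MA-10 replicate 1 was left out (adjusted p = 0.209).

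**Figure D3:**
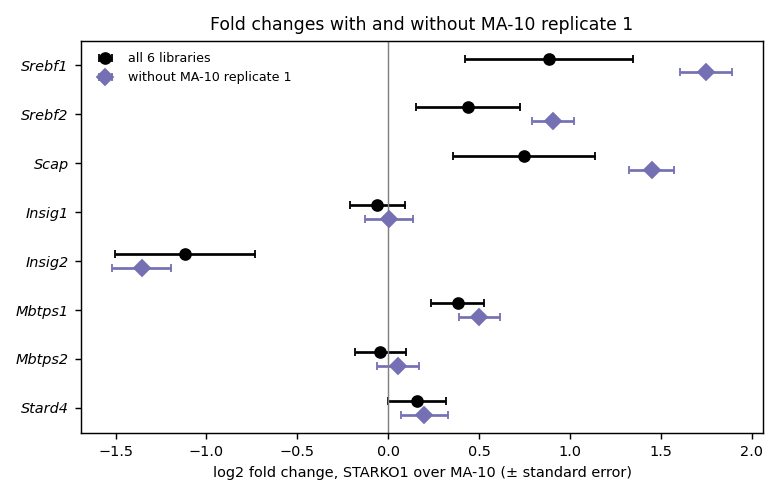
Log2 fold change of STARKO1 over MA-10 cells (horizontal axis) with its standard error (bars) for each of the 8 genes, with all 6 libraries (black circles) and without MA-10 replicate 1 (violet diamonds). Srebf1, Srebf2 and Scap move away from 0 when the library is left out, from 0.88, 0.44 and 0.75 to 1.75, 0.91 and 1.45, and Insig1, Mbtps2 and Stard4 stay near 0.

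Levels were compared between genes per kilobase of exon, counting every exon annotated for the gene. In STARKO1 cells, Srebf2 was the highest with 32.1 ± 0.231 CPM per kilobase (SD, n = 3). It was followed by Insig1 with 22.5 ± 0.555, Srebf1 with 18.1 ± 0.672, Scap with 15.7 ± 1.24, Mbtps1 with 14.3 ± 0.659, Stard4 with 11.3 ± 1.31, Insig2 with 3.48 ± 0.403 and Mbtps2 with 3.05 ± 0.183. In this order, the values of Scap and Mbtps1 overlapped, as did those of Insig2 and Mbtps2, and the other neighbours did not. In MA-10 cells, Srebf2 (23.6 ± 9.45) and Insig1 (23.4 ± 2.62) were the highest and overlapped, Mbtps2 (3.14 ± 0.0893) was the lowest, and the 5 genes between them, from 11.0 for Mbtps1 to 7.59 for Insig2, could not be ordered beyond their spread. With the longest coding transcript as the length, the order changed, and Mbtps1 was second in STARKO1 cells at 34.8 CPM per kilobase. Scap (27.6), Insig1 (25.8), Srebf1 (23.7), Stard4 (12.4), Mbtps2 (6.42) and Insig2 (4.49) followed. Srebf2 was first in both cell lines by either length.

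The partners and targets of the SREBPs were then examined by the same test. A list of 30 partners in their retention, degradation and transport had 28 tested genes, of which 1 was differentially expressed, or 3.57% beside 9.04% of all genes. This gene, Fbxw7, which encodes the ubiquitin ligase subunit that marks nuclear SREBP for degradation, rose from 49.3 ± 9.66 to 95.4 ± 1.33 CPM (SD, n = 3 each), a change of 0.95 ± 0.182 on the log2 scale (edgeR, adjusted p = 0.0292). Its values were 41.8, 46.0 and 60.2 CPM in MA-10 cells and between 93.9 and 96.6 CPM in the STARKO1 libraries, so MA-10 replicate 1 was here the lowest library of all. Of the 6 fits with 1 library left out, Fbxw7 passed in 2, those without MA-10 replicate 1 (adjusted p = 0.000803) and without MA-10 replicate 3 (adjusted p = 0.0480). Leaving out MA-10 replicate 1, 19 of the 28 passed, or 67.9% beside 65.7% of all genes.

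Of the 24 listed SREBP-2 targets, 22 were tested and 2 rose in STARKO1 cells, a share of 9.09%, where 9.04% of all genes passed in either direction and 4.3% were higher. Cyp51, the lanosterol demethylase of cholesterol synthesis, was at 190, 124 and 163 CPM in the MA-10 libraries and at 323, 290.02 and 341 CPM in the STARKO1 libraries, a change of 1.00 ± 0.213 on the log2 scale (edgeR, adjusted p = 0.0385). Tm7sf2, a sterol reductase of the same pathway, rose from 2.64 ± 0.494 to 5.27 ± 0.419 CPM (SD, n = 3 each), a log2 fold change of 0.98 ± 0.229 (adjusted p = 0.0465). When MA-10 replicate 1 was left out, the log2 fold changes of Cyp51 and Tm7sf2 were 1.23 and 1.25 (edgeR, adjusted p = 0.000299 and 0.00102). The list's median log2 fold change was 0.35 beside -0.05 over all genes, and 19 of the 22 genes had a positive value, beside 47.1% of all genes. Without MA-10 replicate 1, 15 of the 22 passed, 12 higher and 3 lower, which is 68.2% beside 65.7% of all genes, and without any one of the other 5 libraries none passed. Both genes lost their call when scaled by library size alone, as did Tm7sf2 with upper quartile scaling, while their fold changes were larger under these scalings. None of the 16 tested SREBP-1 targets was differentially expressed by edgeR. Of these, 5 had an unadjusted p under 0.05 (37.6% of all genes did), and DESeq2 called 3 (24.9% of all genes). The lowest p belonged to Acly, which encodes the enzyme that makes cytosolic acetyl-CoA from citrate. Acly was at 435, 220.3 and 281 CPM in MA-10 cells and between 607 and 649 CPM in the STARKO1 libraries (log2 fold change 0.99 ± 0.284, adjusted p = 0.0661). When MA-10 replicate 1 was left out, Acly passed in edgeR, with a log2 fold change of 1.40 ± 0.151 (adjusted p = 0.000114). The list's median was 0.24, and without MA-10 replicate 1, 11 of the 16 genes passed, or 68.8% beside 65.7% of all genes.

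The liver X receptors (LXRs) sense oxidised sterols and switch on Srebf1 as well as genes of cholesterol export. In the list of LXRs, their targets and the lipoprotein receptors, 1 of 20 tested genes was differentially expressed, against 9.04% of all genes. Nr1h3, which encodes LXR alpha, rose from 7.16 ± 0.189 to 12.9 ± 0.693 CPM (SD, n = 3 each), or 0.85 ± 0.155 on the log2 scale (edgeR, adjusted p = 0.0262). The 3 MA-10 libraries, at 7.33, 7.20 and 6.96 CPM, lay close together for this gene, and the STARKO1 libraries lay between 12.1 and 13.3 CPM. Nr1h3 also passed in 2 such fits, those without MA-10 replicate 1 (adjusted p = 0.000519) and without MA-10 replicate 2 (adjusted p = 0.0481). The list's median log2 fold change was -0.21, and without MA-10 replicate 1, 10 of the 20 genes passed, against 65.7% of all genes. Nr1h3 lost its call when scaled by library size alone (1.28 on the log2 scale, adjusted p = 0.0687).

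Among 18 tested genes for other proteins with a sterol-sensing domain and for sterol transfer, 4 were differentially expressed and all were lower in STARKO1 cells, beside 4.74% of all genes in that direction. One of them is Star, the targeted gene. Stard5, which encodes a lipid-binding protein of the same START family as Stard4, fell from 30.2 ± 1.26 to 17.6 ± 0.528 CPM (SD, n = 3 each, adjusted p = 0.0254). Npc2, which hands cholesterol to the membrane protein NPC1 in the lysosome, fell from 69.6 ± 12.8 to 38.9 ± 3.30 CPM (log2 fold change -0.84 ± 0.184, adjusted p = 0.0410). Osbpl2, an oxysterol-binding protein relative, fell from 44.7 ± 11.1 to 22.4 ± 1.99 CPM (log2 fold change -0.99 ± 0.219, adjusted p = 0.0412). Of these 4 genes, only Star was called with upper quartile scaling or library size alone. Under the latter, the log2 fold changes of Stard5, Npc2 and Osbpl2 went from -0.78, -0.84 and -0.99 to -0.35, -0.37 and -0.49. With MA-10 replicate 1 left out, 12 of the 18 genes passed (66.7% beside 65.7% of all genes), with MA-10 replicate 2 left out, Star and Stard5 passed, and with any one of the other 4 libraries left out, only Star did. Of the other substrates of site-1 protease, none of 7 tested genes was differentially expressed by edgeR or DESeq2. Before adjustment, 2 in edgeR and 3 in DESeq2 had a p under 0.05. Over all genes, 37.6% did in edgeR, and 5158 of 13619 did in DESeq2. The lowest p belonged to Creb3l3, with 20.4, 7.81 and 10.7 CPM in MA-10 cells and between 5.66 and 7.81 CPM in the STARKO1 libraries (log2 fold change -1.01 ± 0.371, adjusted p = 0.101). Its log2 fold change was -0.43 without MA-10 replicate 1 (adjusted p = 0.111). In that fit 4 other genes of the 7 passed, or 57.1% beside 65.7% of all genes.

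**Figure D4:**
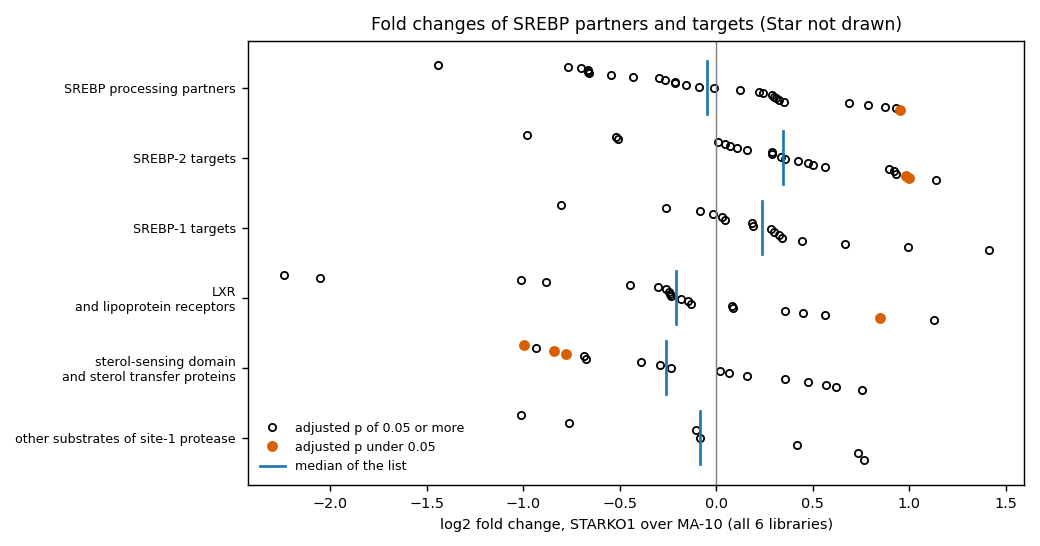
Log2 fold change of STARKO1 over MA-10 cells (horizontal axis, all 6 libraries) of each tested gene in 6 lists of SREBP partners and targets, with filled orange points for an adjusted p under 0.05, open points for the others and a blue line at the median of each list, Star included. Star, at -5.09, is not drawn. SREBP-2 targets lie mostly to the right of 0, with a median of 0.35.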

How the data were processed

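RNA of 3 MA-10 and 3 STARKO1 libraries was analysed from 1 table. The authors deposited estimated counts per gene and library, without scaling and with replicates kept apart. The submitters' processing notes name STAR 2.6.1d, Partek and mm10, and the counting step and its strand setting are not given in the sources used here. Fractional values occurred for 8006 of the 14774 genes, and every gene had at least 10 counts in total. Of these genes, 14677 matched GENCODE release M21 (GRCm38) by symbol and chromosome, 14634 with the same start. Estimated counts were rounded, then tested with edgeR 4.0.16 under R 4.3.3 (filterByExpr, TMM, quasi-likelihood test, Benjamini-Hochberg adjustment over 11939 genes, threshold 0.05, no replicate block). A standard error is the log2 fold change divided by the square root of F, and 95% intervals use the t distribution with the test's residual degrees of freedom. The labels do not say that libraries came from separate cultures, so p values measure the spread between these libraries. The lowest count of a member was 196, a counting error of 7.14%, which is part of the spread between replicates.

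Genes named are the members, Star, up to 4 genes per list and direction past the threshold or else the gene with the lowest p, and the 3 genes most like the member with the lowest p. Members and lists were chosen with earlier results of these data known. Alternatives were DESeq2 1.42.0, 2 other scalings, 2 other filters, a replicate block, offsets for gene length and for GC content, the latter also with the block, and leaving out each library. The length of the longest coding transcript and the motif TCACCCCA were later additions, chosen after the data were seen. Tests were checked on simulated counts of 11938 genes, where edgeR recovered 99% of 4-fold and 36% of 2-fold changes and 8.16% of its calls were false. DESeq2, over 14774 genes of the same simulation, recovered 99% and 44%, and 13.3% of its calls were false. The simulated counts were drawn from the real means and library sizes. Whether the same rates hold for libraries that differ within their group as the MA-10 libraries do was not tested. Exact tests and figures used Python 3.11.15, scipy 1.17.1 and matplotlib 3.10.9. No protein sequences were used here.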

Additional observations from a re-analysis of the deposited data

How the results depend on the processing

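Srebf1, Srebf2, Scap, Insig2, Mbtps1 and Stard4 kept their direction in all 9 alternatives with 6 libraries and in all 6 fits without 1 library. Across these 15 fits the log2 fold change lay between 0.57 and 1.75 for Srebf1, 0.26 and 0.91 for Srebf2, 0.50 and 1.45 for Scap, -1.36 and -0.54 for Insig2, 0.32 and 0.81 for Mbtps1 and 0.11 and 0.62 for Stard4. Insig1 changed sign to 0.088 with upper quartile scaling, 0.38 with library size alone, 0.040 with gene length offsets and 0.0034 with GC content offsets and the replicate block, and lay between -0.13 and 0.0310 without 1 library. Mbtps2 changed sign to 0.10 with upper quartile scaling, 0.39 with library size alone, 0.0135 without a filter, 0.22 with GC content offsets and 0.24 with these and the block, and was 0.054 without MA-10 replicate 1. It lay between -0.068 and 0.054 without 1 library. Scaling by library size alone moved the median over all genes from -0.05 to 0.38, and both genes were near that median under it.

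The members called were 2 with DESeq2 and 0 in the 8 other alternatives, and between 0 and 5 without 1 library, with 5 without MA-10 replicate 1 alone. All genes called, 1079, became 330 with library size alone (210 of them higher, against 513 of 1079), 3385 with DESeq2, 695 with at least 10 counts in every library, 234 with the replicate block and 468 with GC content offsets and the block, and between 89 (without STARKO1 replicate 1) and 7990 (without MA-10 replicate 1) without 1 library. Among SREBP processing partners, 7 were called with DESeq2, 2 with gene length offsets, 0 with the block and between 0 and 19 without 1 library. Among SREBP-2 targets, 6 were called with DESeq2, 5 with gene length offsets, 1 with upper quartile scaling or no filter, 0 with library size alone, with the block or with GC content offsets and the block, and between 0 and 15 without 1 library. Among SREBP-1 targets, 3 were called with DESeq2 and between 0 and 11 without 1 library. In the LXR list, 6 were called with DESeq2, 2 with gene length or GC content offsets, 0 with library size alone, with the block or with GC content offsets and the block, and between 0 and 10 without 1 library. In the sterol-sensing and transfer list, 7 were called with DESeq2, 1 with upper quartile scaling, library size alone, the block or GC content offsets and the block, and between 1 and 12 without 1 library. Other substrates of site-1 protease gave between 0 and 4 without 1 library. With DESeq2, the calls were 25% of the partners, 27.3% of the SREBP-2 targets and 18.75% of the SREBP-1 targets. They were 30% of the LXR list and 36.8% of the sterol-sensing and transfer list, beside 24.9% of all genes. Gene length offsets called 7.14% of the partners, 22.7% of the SREBP-2 targets and 10% of the LXR list, beside 9.98% of all genes. Of all genes, 6.94% were called with upper quartile scaling, 6.41% without a filter, 10.6% with GC content offsets and 3.92% with these and the block. Library size alone called 2.76%, the block 1.96% and the fit without MA-10 replicate 1 65.7%. The causes of the changes between fits were not tested.

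The differences in the ratios kept their direction, between 0.52 and 1.37 for Insig1 to Insig2 and between 0.44 and 0.85 for Srebf1 to Srebf2 without 1 library. Paired by replicate number, they were 0.93 (exact p = 0.50) and 0.61 (exact p = 0.25), the latter the smallest p that 3 pairs allow. The labels do not say that replicate numbers pair the samples. Deviations of same-numbered libraries from their group means correlated at -0.0346, 0.0907 and -0.0162, and not every library correlated best with its own number. With 3 libraries in each group, these values cannot exclude a pairing. The lowest count of the 8 genes in any library was 196, a counting error of 7.14%.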

Other observations

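Several genes around the SREBP pathway that did not pass the test had large differences between libraries, and those named here were chosen after their values were seen. Apoe, which encodes the apolipoprotein E of cholesterol-carrying particles and is a target of LXRs, was at 968, 6633 and 4433 CPM in the MA-10 libraries (replicates 1 to 3) and between 926 and 1009 CPM in the STARKO1 libraries. Apoc1, its neighbour in the same gene cluster, was at 103, 1009 and 516 CPM in MA-10 cells and between 107 and 121 CPM in the STARKO1 libraries. Both had, like Insig2, MA-10 replicates 2 and 3 above the other 4 libraries, and adjusted p values of 0.0768 and 0.0800 (edgeR's quasi-likelihood test). Abca1, the cholesterol exporter and another LXR target, showed the opposite direction, with 217, 103 and 111 CPM in MA-10 cells and between 313 and 316 CPM in the STARKO1 libraries, and its groups did not overlap (log2 fold change 1.13, standard error 0.311, adjusted p = 0.0626). Sqle, the squalene epoxidase of cholesterol synthesis, was at 397, 207 and 242 CPM in MA-10 cells and between 611 and 628 CPM in the STARKO1 libraries, again without overlap (log2 fold change 1.14, standard error 0.282, adjusted p = 0.0521). Without MA-10 replicate 1, the log2 fold changes were -2.42 for Apoe, -2.63 for Apoc1, 1.64 for Abca1 and 1.56 for Sqle.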
